A study of Mus musculus with 8 samples.

Results

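The mitochondrially encoded genes are those carried by the small circular genome inside the mitochondrion. Members were all rows of the deposited table whose gene name starts with mt-, which gave 16 of 39527 genes. They comprised 13 protein-coding genes, 2 ribosomal RNA (rRNA) genes and 1 transfer RNA (tRNA) gene, mt-Tp, out of 37 genes annotated on this chromosome. The other 21 annotated tRNA genes are not analysed here. RNA came from group 2 innate lymphoid cells (ILC2s), tissue-resident lymphocytes that secrete type 2 cytokines, sorted from the epididymal visceral fat of wild-type male C57BL/6 mice 14 weeks old. Libraries H1 to H4 come from mice given a high-fat diet from the age of 6 weeks on, for 8 weeks, and libraries N1 to N4 from mice given a normal diet over the same time. The comparison asks how the RNA of these cells differs between the diets. No label tells if a library holds 1 mouse or a pool, so p-values measure only the spread between libraries, which may be technical.

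Mitochondrial DNA encodes core subunits of the respiratory chain together with the rRNAs and tRNAs needed to translate them, and all other proteins of the organelle are encoded in the nucleus. Both strands are transcribed as long RNAs that run through many genes, and the tRNAs between the genes are cut out to release the mRNAs and rRNAs. The complex I genes (mt-Nd) encode subunits of NADH dehydrogenase, mt-Cytb encodes cytochrome b of complex III, the complex IV genes (mt-Co) encode cytochrome c oxidase subunits, and mt-Atp6 and mt-Atp8 encode subunits of the ATP synthase, complex V. The nuclear genome also holds old copies of mitochondrial DNA.

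Sequences are shown because the members differ in how far the nuclear genome copies them, and reads inside a copied stretch can match both places. All are 5′ to 3′ from the GENCODE M21 transcripts (GRCm38, the assembly also called mm10). The tRNA of the set, mt-Tp, carries proline and lies at chrM:15356-15422 on the minus strand.
mt-Tp: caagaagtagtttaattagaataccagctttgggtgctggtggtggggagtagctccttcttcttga
The stretch of mt-Nd4l at chrM:9877-10170, plus strand, is 294 bases long. The pseudogene Gm10222 at chr1:24612407-24612700, minus strand, holds the same 294 bases with 0 mismatches, so the letters of a read inside them do not tell both places apart.
mt-Nd4l: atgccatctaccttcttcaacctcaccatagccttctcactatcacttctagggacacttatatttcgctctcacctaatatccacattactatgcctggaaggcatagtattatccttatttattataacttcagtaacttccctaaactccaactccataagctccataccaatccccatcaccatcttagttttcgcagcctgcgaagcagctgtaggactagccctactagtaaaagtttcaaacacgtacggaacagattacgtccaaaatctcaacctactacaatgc
The pair mt-Nd3 (chrM:9459-9491, plus strand) and Gm28438 (chr1:24613087-24613119, minus strand) differ at 1 base in 345, shown in capitals: T3C, counted from the first base of the gene with the mitochondrial base first.
mt-Nd3: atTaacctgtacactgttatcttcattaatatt
Gm28438: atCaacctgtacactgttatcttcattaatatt
The pair mt-Co1 (chrM:6390-6423, plus strand) and Gm29216 (chr1:24616155-24616188, minus strand) also differ at 1 base, A1066T, over the 483 bases they share.
mt-Co1: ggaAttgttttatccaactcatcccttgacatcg
Gm29216: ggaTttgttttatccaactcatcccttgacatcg
By contrast mt-Nd6 (chrM:13951-14070, minus strand) and its nearest copy Gm11408 (chr4:80003795-80003914, minus strand), at 93.6% identity over 519 bases, differ in the first 120 bases at A24G, T48C, A76G and G116A.
mt-Nd6: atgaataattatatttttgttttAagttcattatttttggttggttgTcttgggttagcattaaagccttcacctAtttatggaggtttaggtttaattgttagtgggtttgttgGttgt
Gm11408: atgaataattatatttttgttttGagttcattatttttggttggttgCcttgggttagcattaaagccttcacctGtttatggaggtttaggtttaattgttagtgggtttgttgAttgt

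The deposited values are FPKM by their column names (fragments corrected for gene length and library size), and the whole reads behind them could be recovered. Reads totalled 9005363 in H2 and 12272413 to 15752815 in the other 7 libraries, so H2 was the shallowest. It also had the most genes at 1 FPKM or more, 13663, against 10763 to 11905 in the other libraries. The library preparation does not mark the strand, so RNA of either strand is counted for every member. The ILC2 markers Gata3 and Il1rl1, a transcription factor and the IL-33 receptor, were high in every library. Gata3 stood at 566 to 714 FPKM in the high-fat libraries and 835 to 1145 FPKM in the normal-diet libraries, and Il1rl1 at 269 to 299 FPKM in the high-fat libraries and 297 to 425 FPKM in the normal-diet libraries.

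No member held a value below 0, although 14605 genes of the table do. A value of 0 was listed for mt-Nd3 in H2 and N1, and for mt-Nd4l in H2, N2 and N4, and every other member was above 0 in all 8 libraries. A count of 0 allows up to 3 reads, which is 0.333 RPM (reads scaled to the library's total) in H2, 0.244 in N1, 0.200 in N2 and 0.197 in N4 (counting error only). These 2 complex I genes together with mt-Atp8 did not reach 1 FPKM in at least 4 libraries, so 13 of the 16 members were tested. For mt-Atp8 this depends on the length behind its deposited value, 682 bases where the annotation gives 204. On the RPM scale, which uses no length, it stood at 0.222 to 0.741 and was not tested either.

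Per length, the reads of the members fell into levels far apart. How well the library preparation captures each type of RNA was not tested, so these are levels of reads. On RPM per kilobase of annotated length, averaged over the 8 libraries, mt-Nd1 stood at 724, mt-Rnr2 at 695, mt-Cytb at 647 and mt-Co1 at 630, and the ranges of these 4 overlapped. A middle group held mt-Nd2 at 139, mt-Nd5 at 107, mt-Nd4 at 102, mt-Tp at 82.1, mt-Nd6 at 68.0 and mt-Rnr1 at 62.7. Of neighbours in that order, mt-Co1 was above mt-Nd2 in 8 of 8 libraries and mt-Nd2 above mt-Nd5 in 8 of 8, while mt-Nd6 was above mt-Rnr1 in only 5 of 8. The low group held mt-Co3 at 9.96, mt-Atp6 at 7.93, mt-Co2 at 7.21, mt-Atp8 at 2.33, mt-Nd4l at 0.559 and mt-Nd3 at 0.487, and mt-Rnr1 was 6.30-fold above mt-Co3, in 8 of 8 libraries. Subunits of the same enzyme were thus split: the level of mt-Co1 was 50.2 to 70.3 times that of mt-Co3 in the high-fat libraries and 59.1 to 79.8 times in the normal-diet libraries.

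**Figure D1:**
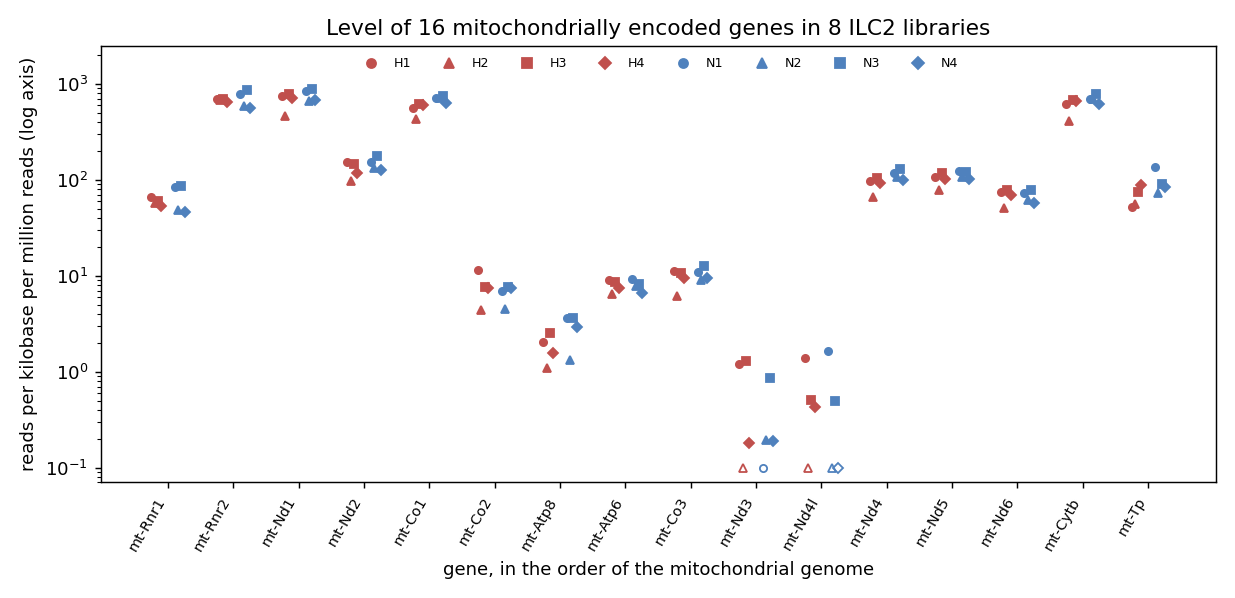
RPM per kilobase (log axis) of the 16 mitochondrially encoded genes, in genome order, with 1 point per library, high-fat diet left of normal diet for each gene. Open symbols at the foot stand for the 5 values of 0. The 6 genes from mt-Co2 to mt-Nd4l lie together and below all others, with averages from 0.487 to 9.96, and H2 is the lowest point for many genes.

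The 6 low genes follow one another among the 16 along the mitochondrial genome, between mt-Co1 and mt-Nd4. This stretch is matched by a block of pseudogenes at chr1:24611535-24616197, on the minus strand, where 7 members have a copy of at least 99% identity. The copies cover 681 of 684 bases of mt-Co2 (Gm28661), 678 of 681 of mt-Atp6 (Gm10925), 783 of 784 of mt-Co3 (Gm28437), 345 of 348 of mt-Nd3 (Gm28438) and 294 of 297 of mt-Nd4l (Gm10222). Part of mt-Co1 (31.3%, Gm29216) and of mt-Nd4 (63.6%, Gm28439) is also copied, and neither of these 2 members was in the low group. No copy is annotated for mt-Atp8, but the copies of mt-Co2 and mt-Atp6 lie 233 bases apart on chromosome 1, the same distance as on the mitochondrial genome, where most of mt-Atp8 lies within it. The remaining 8 members had no copy at that identity.

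Reads were assigned to the copies as well as to the members. Over all libraries mt-Co3 held 859 reads and its copy 867, mt-Atp6 588 and its copy 808, mt-Co2 545 and its copy 392, mt-Nd4l 18 and its copy 17, and mt-Nd3 19 and its copy 3. The copy of mt-Co1 held 771 reads against 106945 for the gene, and that of mt-Nd4 held 65 against 15389. Where the copy covers nearly the whole gene, gene and copy therefore stood at like numbers for mt-Co3, mt-Atp6 and mt-Co2, whereas the partly copied genes held nearly all reads. None of the 4 copies that could be tested on the RPM scale passed the diet test (limma, adjusted p from 0.606 to 0.839). How the authors' counting placed reads that match both genomes is not given in the sources used here, and its part in the low levels was not tested. The levels of these 6 genes, and of mt-Co1 and mt-Nd4 in part, are therefore uncertain.

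**Figure D2:**
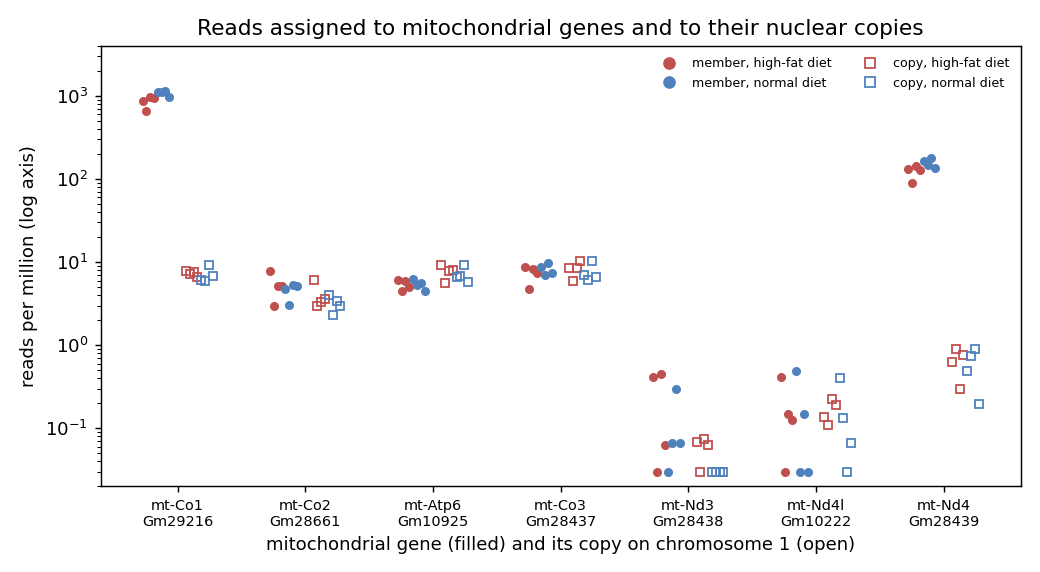
RPM (log axis) of the 7 members with a close copy on chromosome 1 (filled circles) and of that copy (open squares), 1 point per library, high-fat diet left of normal diet. Symbols at the foot stand for 0. Gene and copy lie at like heights for mt-Co2, mt-Atp6 and mt-Co3, while mt-Co1 and mt-Nd4 lie far above theirs.

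Together the 16 genes took a small part of each library. They held 0.403%, 0.308%, 0.425% and 0.397% of all recovered reads in H1 to H4, against 0.466%, 0.406%, 0.501% and 0.378% in N1 to N4. The diets overlapped, with H2 the lowest and N3 the highest of the 8. The share averaged 0.383% ± 0.052 in the high-fat libraries and 0.438% ± 0.056 in the normal-diet libraries (SD, n = 4 each), so the difference of -0.055 percentage points was about the spread within a diet. The 95% Wilson interval of a single library was narrow, 0.304% to 0.312% in H2 and 0.497% to 0.505% in N3 (counting error only). With the reads of the nuclear copies added, the share was 0.310% to 0.428% in the high-fat libraries and 0.380% to 0.505% in the normal-diet libraries. How reads that match both genomes were placed is not known here, so the share is uncertain as well. In sorted bulk cells, fewer cells of a kind and less RNA per cell cannot be told apart.

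**Figure D3:**
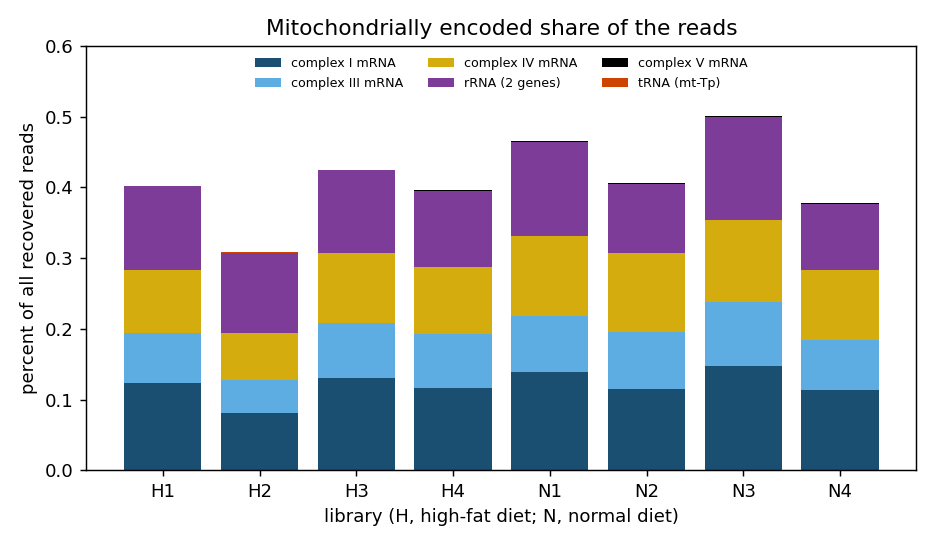
Percent of all recovered reads from mitochondrially encoded genes in each library, stacked by gene type and complex. Complex V and tRNA are the barely visible lines at the top. The total runs from 0.308% in H2 to 0.501% in N3, and high-fat and normal libraries overlap.

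By gene type, mRNA made up 70.6%, 63.4%, 72.2% and 72.6% of the mitochondrial reads in H1 to H4, against 71.1%, 75.8%, 70.8% and 75.1% in N1 to N4. The rRNAs held 29.3%, 36.5%, 27.6% and 27.3% in H1 to H4, against 28.7%, 24.1%, 29.1% and 24.8% in N1 to N4, so H2 had the largest rRNA part of the 8 and the diets overlapped. The tRNA mt-Tp held 0.088% to 0.150% in the high-fat libraries and 0.120% to 0.194% in the normal-diet libraries. Complex I took 26.3% to 30.8% in the high-fat libraries and 28.4% to 30.1% in the normal-diet libraries, complex III 15.2% to 19.1% in the high-fat libraries and 17.0% to 19.6% in the normal-diet libraries, and complex V 0.136% to 0.163% in the high-fat libraries and 0.126% to 0.150% in the normal-diet libraries. Complex IV was the class whose RPM did not overlap between the diets. It stood at 888, 669, 981 and 952 RPM in H1 to H4, against 1124, 1124, 1162 and 989 in N1 to N4. Nearly all of it was mt-Co1, so this restates the values of a single gene. Of all tested genes 4.14% were lower without overlap on the RPM scale, and no such share was computed for classes. As a part of mitochondrial reads complex IV overlapped, at 21.7% to 24.0% in the high-fat libraries and 23.2% to 27.7% in the normal-diet libraries. The low genes of uncertain level include mt-Nd3 and mt-Nd4l of complex I, mt-Co2 and mt-Co3 of complex IV, and all of complex V. The parts of these classes are uncertain to that extent.

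Between the diets, no mitochondrially encoded gene passed the test. On the FPKM scale 0 of 13 tested members were called (limma on log2(FPKM + 1), Benjamini-Hochberg adjusted p under 0.05 over 11483 genes), where 2.86% of all tested genes were called. At an unadjusted p under 0.05 there were 4 members, mt-Co1, mt-Nd5, mt-Cytb and mt-Tp, all lower on the high-fat diet, against 11% of all tested genes lower at that level. All 13 fold changes were below 0, against 52.1% of all tested genes, and their median log2 fold change was -0.37, against -0.02 over all tested genes. The members share transcripts and libraries and are not independent of each other. A fit with limma's voom on the recovered reads called 0 members as well, and gave 2 at an unadjusted p under 0.05. With no H2, which was the lowest of 8 libraries for 12 of the 13 members, the median was -0.16 and 10 of 13 were below 0.

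The deposited scaling differs from the read totals. Recovered reads divided by the deposited divisor were 0.977 to 1.16 in the high-fat libraries and 1.14 to 1.35 in the normal-diet libraries. On the RPM scale the median log2 fold change of all 14161 tested genes was 0.15, against -0.02 on the FPKM scale, a shift against which changes on that scale are to be read. On that scale the members' median was -0.18 and 11 of 13 were below 0, against 31.1% of all tested genes. Again 0 of 13 were called, where 10.2% of all tested genes were, and 2 members, mt-Co1 and mt-Nd4, were lower at an unadjusted p under 0.05, as were 6.48% of all tested genes. The members' median lay below that of all tested genes by 0.35 on the FPKM scale and 0.33 on the RPM scale, and by 0.16 on either scale without H2, where the members' median was -0.06 on the RPM scale.

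**Figure D4:**
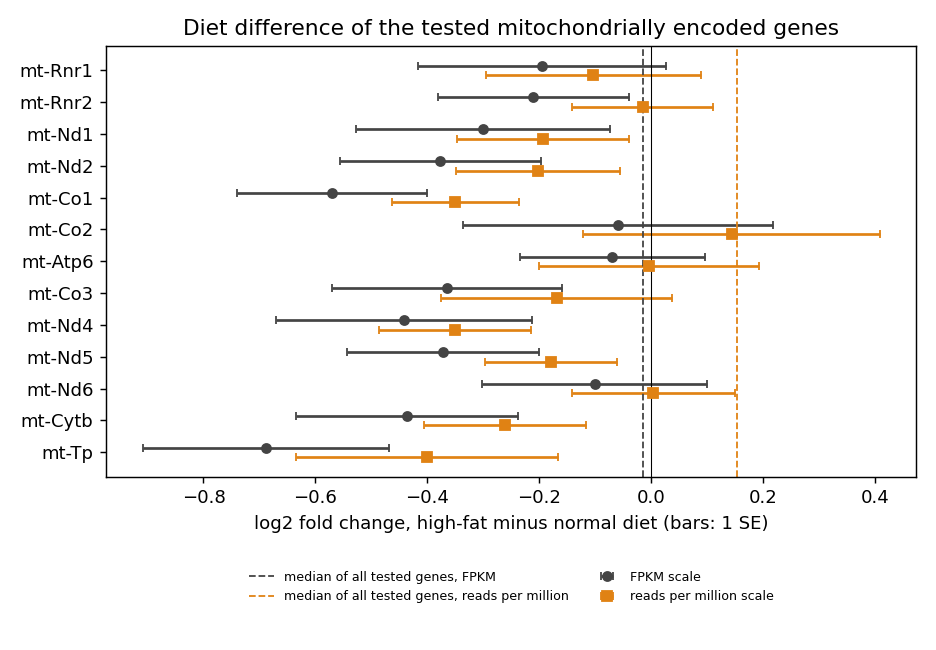
Log2 fold change, high-fat minus normal diet, of the 13 tested members with 1 standard error, on the FPKM scale (circles) and on the RPM scale (squares). Dashed lines give the median of all tested genes, -0.02 for FPKM and 0.15 for RPM. All circles are below 0, mt-Tp and mt-Co1 lie farthest left, and no member passed the adjusted threshold.

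Complex IV held the member closest to the threshold. The catalytic subunit gene mt-Co1 stood at 560, 419, 686 and 704 FPKM in H1 to H4, against 795, 928, 824 and 909 FPKM in N1 to N4. Every high-fat library was below every normal-diet library, as for 6.76% of all tested genes on the FPKM scale and 4.14% on the RPM scale. The gap was narrow on the RPM scale, with H3 at 968 and N4 at 976. No other tested member was without overlap in either direction, and none lay above, as 4.31% of all tested genes did on the FPKM scale and 13.6% on the RPM scale. The log2 fold change was -0.57 (SE 0.17, limma adjusted p = 0.0860), and on the RPM scale -0.35 (SE 0.11, adjusted p = 0.0684). Without H2 it was -0.41 on the FPKM scale (limma adjusted p = 0.127) and -0.23 on the RPM scale (adjusted p = 0.108). The gene passed the threshold in 2 of 18 alternative settings on the FPKM scale, a stricter filter and equal library medians, at adjusted p of 0.0445 and 0.0499. Its adjusted p over all 18 ran from 0.0445 to 0.195. The subunit genes mt-Co2 and mt-Co3 were low and overlapped between the diets. In H1 to H4 mt-Co3 had 12.9, 5.94, 10.7 and 10.6 FPKM, against 12.7, 14.4, 14.5 and 9.99 FPKM in N1 to N4 (log2 fold change -0.37, SE 0.21, limma adjusted p = 0.373). Without H2 the log2 fold change of mt-Co3 was -0.16 on the FPKM scale and 0.00 on the RPM scale. In H1 to H4 mt-Co2 had 13.4, 4.0, 7.82 and 8.51 FPKM, against 9.85, 6.14, 7.52 and 9.80 FPKM in N1 to N4, and its log2 fold change was -0.06 on the FPKM scale and 0.14 on the RPM scale.

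Complex III is represented by mt-Cytb alone. It stood at 697, 406, 632 and 825 FPKM in H1 to H4, against 822, 955, 903 and 700 FPKM in N1 to N4. The diets overlapped because H4 was above N1 and N4. The log2 fold change was -0.44 (SE 0.20, limma adjusted p = 0.259), and -0.23 without H2.

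The complex I genes were measured over a wide span and overlapped between the diets throughout. The largest of them, mt-Nd1, stood at 855, 436, 823 and 992 FPKM in H1 to H4, against 1008, 776, 1084 and 827 FPKM in N1 to N4. Here H2 stood apart from the other high-fat libraries, and the log2 fold change of -0.30 (SE 0.23, adjusted p = 0.529, limma) became -0.05 without H2. For mt-Nd2 there were 174, 97.4, 137 and 146 FPKM in H1 to H4, against 182, 183, 201 and 145 FPKM in N1 to N4 (log2 fold change -0.38, SE 0.18, limma adjusted p = 0.286). For mt-Nd5, which like mt-Nd4 and mt-Nd2 belongs to the proton-pumping membrane arm, there were 132, 78.2, 126 and 110 FPKM in H1 to H4, against 139, 142, 161 and 127 FPKM in N1 to N4 (log2 fold change -0.37, SE 0.17, limma adjusted p = 0.268). In both genes H1 was above N4, so the diets overlapped. Without H2 the log2 fold change was -0.22 for mt-Nd2 and -0.21 for mt-Nd5.

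The remaining complex I genes differed among themselves. The values of mt-Nd4 were 132, 55.5, 120 and 108 FPKM in H1 to H4, against 144, 144, 137 and 115 FPKM in N1 to N4, with a log2 fold change of -0.44 (SE 0.23, limma adjusted p = 0.334) that was -0.17 without H2. The values of mt-Nd6, the mRNA read from the opposite strand to all other members of the group, were 85.3, 47.8, 81.5 and 95.7 FPKM in H1 to H4, against 87.3, 72.3, 95.4 and 70.4 FPKM in N1 to N4. Its log2 fold change was -0.10 on the FPKM scale (SE 0.20, limma adjusted p = 0.846) and 0.00 on the RPM scale (SE 0.15, adjusted p = 0.992). The reads behind mt-Nd3 numbered 6, 0, 6 and 1 in H1 to H4, against 0, 1, 4 and 1 in N1 to N4, and those behind mt-Nd4l 6, 0, 2 and 2 in H1 to H4, against 6, 0, 2 and 0 in N1 to N4. A diet difference in these 2 genes was not detectable at this depth.

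In complex V, mt-Atp6 stood at 10.6, 6.87, 9.30 and 8.81 FPKM in H1 to H4, against 10.9, 9.87, 8.84 and 7.78 FPKM in N1 to N4. The diets overlapped, and the log2 fold change was -0.07 on the FPKM scale (SE 0.16, limma adjusted p = 0.874) and 0.00 on the RPM scale. Its partner mt-Atp8, which overlaps it on the genome, was not tested and had 6, 2, 7 and 5 reads in H1 to H4, against 9, 4, 10 and 9 reads in N1 to N4. The length behind the deposited value of mt-Atp8 was 682 bases where the annotation gives 204, and that of mt-Nd4l was 1677 where it gives 297. The other 14 members matched the annotated length to within 1 base. The reads recovered for mt-Atp8 and mt-Nd4l rest on those unmatched lengths.

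For the rRNAs no diet difference was larger than the spread between libraries. The large-subunit rRNA mt-Rnr2 stood at 878, 674, 758 and 705 FPKM in H1 to H4, against 899, 777, 1170 and 695 FPKM in N1 to N4 (log2 fold change -0.21, SE 0.17, limma adjusted p = 0.563). The small-subunit rRNA mt-Rnr1 stood at 89.8, 48.5, 69.5 and 61.8 FPKM in H1 to H4, against 102, 64.9, 90.8 and 53.7 FPKM in N1 to N4 (log2 fold change -0.20, SE 0.22, limma adjusted p = 0.706). Without H2 the log2 fold change of mt-Rnr1 was -0.05. In both genes N4 was the lowest and N1 or N3 the highest of the normal-diet libraries, and the diets overlapped. Per length the reads of the large-subunit rRNA were 10.7 to 12.2 times those of the small in the high-fat libraries and 9.38 to 12.2 times in the normal-diet libraries. The ratio of rRNA to mRNA reads was 0.416, 0.577, 0.383 and 0.376 in H1 to H4, against 0.404, 0.318, 0.411 and 0.330 in N1 to N4.

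The tRNA gene mt-Tp had the largest fold change of the 13 on the FPKM scale. It stood at 51.7, 54.4, 81.8 and 102 FPKM in H1 to H4, against 147, 92.4, 99.2 and 120 FPKM in N1 to N4. Only H4 reached into the normal-diet range. The log2 fold change was -0.69 (SE 0.22, limma adjusted p = 0.110), and -0.40 on the RPM scale (SE 0.23, adjusted p = 0.304). It rests on 51, 34, 68 and 94 reads in H1 to H4, against 111, 73, 82 and 86 reads in N1 to N4, so N1 carries the highest value. The gene is short and read from the minus strand, and without strand the reads of a longer unprocessed RNA across it would be counted alike. It passed the threshold in 1 of 18 alternative settings, the stricter filter, at adjusted p = 0.0488, within a range of 0.0488 to 0.326.

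Within the mitochondrial reads of a library, where depth and scaling drop out, 2 members did not overlap between the diets. Of these reads, mt-Nd6 held 0.957%, 0.865%, 0.949% and 0.914% in H1 to H4, against 0.809%, 0.796%, 0.808% and 0.796% in N1 to N4. For mt-Nd4 the parts were 3.31%, 2.95%, 3.36% and 3.24% in H1 to H4, against 3.53%, 3.63%, 3.54% and 3.63% in N1 to N4. Every high-fat library lay above every normal-diet library for mt-Nd6 and below every one for mt-Nd4, and the other 14 members overlapped. Set against the same mitochondrial reads, 18.9% of 13967 genes with a read in every library were higher without overlap and 0.322% lower. Nearly all of these genes are nuclear and lie outside the mitochondrial reads. Those reads averaged a smaller share on the high-fat diet, 0.383% against 0.438% on the normal diet. A member is itself a part of them, so the 2 percentages are not a like reference for it. Counting alone gave a 95% Wilson interval for mt-Nd6 of 0.763% to 0.981% in H2 and 0.739% to 0.886% in N1, which overlap. These parts are descriptions, with no test, since they were singled out after the values were seen.

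The ratio of mt-Nd4 to mt-Nd6 per length was 1.30, 1.28, 1.33 and 1.33 in H1 to H4, against 1.64, 1.72, 1.65 and 1.72 in N1 to N4. It averaged 1.31 ± 0.025 in the high-fat libraries and 1.68 ± 0.041 in the normal-diet libraries (SD, n = 4 each). H2 lay with the other high-fat libraries. The ratio rests on 240 to 571 reads of mt-Nd6 per library, and no counting interval was computed for it. How close the libraries of a diet lie is therefore no measure of its precision. Relative to mt-Nd6 the ratio of mt-Co1 was 7.60 to 8.71 in the high-fat libraries and 9.51 to 11.6 in the normal-diet libraries, that of mt-Cytb 7.97 to 9.46 in the high-fat libraries and 9.54 to 11.1 in the normal-diet libraries, and that of mt-Nd5 1.43 to 1.53 in the high-fat libraries and 1.53 to 1.78 in the normal-diet libraries. Of the 78 ratios between pairs of the 13 tested members, 10 did not overlap between the diets, or 12.8%, against 13.3% of all pairs of those 13967 genes. The count is thus near that of any pair of genes. Each of the 10 held mt-Nd6 or mt-Nd4. The high-fat libraries had more mt-Nd6 relative to mt-Nd1, mt-Nd2, mt-Co1, mt-Nd4, mt-Nd5 and mt-Cytb, and less mt-Nd4 relative to mt-Rnr2, mt-Nd1, mt-Atp6, mt-Nd5 and mt-Nd6. Without strand, RNA of the opposite strand across mt-Nd6 is counted with it, and a part of mt-Nd4 is copied in the nucleus. The part of either in these ratios was not tested.

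**Figure D5:**
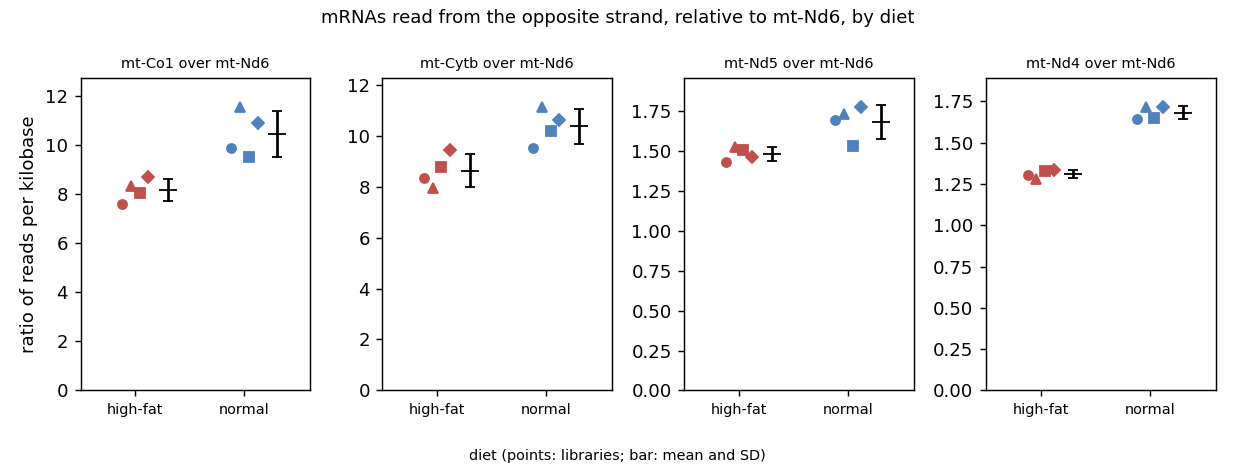
Ratio of reads per kilobase of mt-Co1, mt-Cytb, mt-Nd5 and mt-Nd4 to those of mt-Nd6, 1 point per library, high-fat diet left of normal diet, with the mean and SD of each diet. All high-fat points lie below all normal-diet points, narrowly for mt-Nd5 and widest apart for mt-Nd4, at 1.28 to 1.33 in the high-fat libraries and 1.64 to 1.72 in the normal-diet libraries.

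The nuclear genes that copy, transcribe, process and translate mitochondrial DNA showed 1 change between the diets on the FPKM scale. Of 90 genes in 6 lists, 86 were in the table and 79 were tested, with 0 higher and 1 lower on the high-fat diet, where 0.975% of all tested genes were called higher and 1.88% lower. The median log2 fold change of the 79 was 0.01, against -0.02 over all tested genes. Other fits gave other counts. On the RPM scale, which also tests more genes, 7 of 85 were higher and 1 lower, where 7.62% of all tested genes were called higher and 2.58% lower. With voom 11 of 79 were higher and 1 lower, where 9.73% of all tested genes were called higher and 3.38% lower. The gene that fell was Tbrg4, also called FASTKD4, which in human cells stabilises mitochondrial mRNAs. It stood at 10.3, 9.56, 9.83 and 9.11 FPKM in H1 to H4, against 15.5, 20.7, 16.9 and 14.6 FPKM in N1 to N4. Every high-fat library was below every normal-diet library, with a log2 fold change of -0.73 (SE 0.15, limma adjusted p = 0.0163). The call held in 14 of 18 alternative settings. Among those that ended it, the log2 fold change was -0.73 without a filter on low values (limma adjusted p = 0.0545), -0.74 without H3 (0.0539) and -0.71 without H4 (0.0577).

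Apart from the 19 tested processing and stability genes, which hold Tbrg4, none of the nuclear lists held a called gene on the FPKM scale. Of the 6 tested transcription genes, Tfam, which packages mitochondrial DNA and starts its transcription, averaged 16.9 ± 1.46 FPKM in the high-fat libraries and 17.0 ± 1.20 FPKM in the normal-diet libraries (SD, n = 4 each), and Mterf3 averaged 25.2 ± 4.45 FPKM in the high-fat libraries and 21.9 ± 1.15 FPKM in the normal-diet libraries. Of the 9 tested replication genes, the nucleoside kinase gene Tk2 averaged 35.0 ± 5.35 FPKM in the high-fat libraries and 41.6 ± 4.35 FPKM in the normal-diet libraries. Its partner Dguok averaged 39.9 ± 10 FPKM in the high-fat libraries and 36.7 ± 4.73 FPKM in the normal-diet libraries. Among 13 modification genes, Nsun4, an rRNA methyltransferase, averaged 16.3 ± 0.67 FPKM in the high-fat libraries and 16.2 ± 0.87 FPKM in the normal-diet libraries, and Trnt1, which adds the CCA end to tRNAs, 22.3 ± 4.07 FPKM in the high-fat libraries and 22.0 ± 2.56 FPKM in the normal-diet libraries. Among 21 tRNA synthetase genes, Lars2 averaged 132 ± 13.2 FPKM in the high-fat libraries and 151 ± 6.43 FPKM in the normal-diet libraries, and Kars, whose enzyme also serves the cytosol, 48.4 ± 11.7 FPKM in the high-fat libraries and 48.8 ± 0.91 FPKM in the normal-diet libraries. Of the 11 translation and insertion genes, the elongation factor gene Tufm averaged 27.9 ± 2.98 FPKM in the high-fat libraries and 25.0 ± 2.05 FPKM in the normal-diet libraries, and Oxa1l, which inserts the subunits into the inner membrane, 15.9 ± 3.34 FPKM in the high-fat libraries and 17.1 ± 3.57 FPKM in the normal-diet libraries. For these 10 genes the limma adjusted p ran from 0.417 to 0.994. The members' median, -0.37, lay below that of each of these lists, which ran from -0.07 to 0.23. The translation and insertion genes summed to 108 to 121 FPKM in the high-fat libraries and 95.1 to 106 FPKM in the normal-diet libraries, without overlap. Their fold change was below 0 for 3 of the 11 tested, against 52.1% of all tested genes. The sums of the other nuclear lists overlapped, and no share of such sums over all genes was computed.

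Markers of other cell types also varied between the libraries. The summed level of 6 endothelial genes was 132, 23.9, 84.2 and 97.1 FPKM in H1 to H4. In N1 to N4 it was 18.7, 14.9, 14.4 and 14.8 FPKM. Much of the high-fat sum was Fabp4, a fatty acid carrier, at 104, 9.68, 62.5 and 68.9 FPKM in H1 to H4. In N1 to N4 Fabp4 stood at 1.81, 0.788, 1.63 and 1.58 FPKM. Fabp4 was the 1 of 2 tested that passed (higher, limma adjusted p = 0.0270), where 0.975% of all tested genes were called higher. Pecam1, the other tested gene, stood at 10.6 to 25.1 FPKM in the high-fat libraries and 11.3 to 16.1 FPKM in the normal-diet libraries. The other 4 were too low to be tested, and each was higher in every high-fat library than in any normal-diet library. Of all tested genes 4.31% were so on the FPKM scale, and no such share was computed for genes this low. Cdh5 stood at 0.333 to 0.416 FPKM in the high-fat libraries and 0.024 to 0.315 FPKM in the normal-diet libraries, and Kdr at 0.694 to 1.82 FPKM in the high-fat libraries and 0.045 to 0.351 FPKM in the normal-diet libraries. Tie1 stood at 0.583 to 3.07 FPKM in the high-fat libraries and 0.152 to 0.287 FPKM in the normal-diet libraries, and Egfl7 at 0.779 to 2.88 FPKM in the high-fat libraries and 0.049 to 0.552 FPKM in the normal-diet libraries. The summed level of 7 T cell genes was 840, 403, 673 and 865 FPKM in H1 to H4, against 438, 501, 419 and 567 FPKM in N1 to N4. Much of it was Trbc2, at 236 to 468 FPKM in the high-fat libraries and 207 to 285 FPKM in the normal-diet libraries. Of 6 tested 0 were called, where 2.86% of all tested genes were. The fold change was below 0 for 0 of the 6, against 52.1% of all tested genes. Their median log2 fold change was 0.85, against -0.02 over all tested genes, and the diets overlapped in each. The 10 ILC2 markers summed to 4569 to 5324 FPKM in the high-fat libraries and 5992 to 7275 FPKM in the normal-diet libraries. Of these, Gata3, Il2ra and Il5 were called lower (3 of 10), where 1.88% of all tested genes were. The fold change was below 0 for 8 of the 10, and Il7r and Areg went the other way. Il7r stood at 203 to 272 FPKM in the high-fat libraries and 150 to 199 FPKM in the normal-diet libraries (limma adjusted p = 0.293). The log2 fold change of Areg was 0.33 (limma adjusted p = 0.417). Macrophage genes summed to 6.37 to 9.57 FPKM in the high-fat libraries and 4.26 to 7.75 FPKM in the normal-diet libraries. Among them Adgre1 and C1qb, too low to be tested, went opposite ways without overlap. Adgre1 stood at 0.095 to 0.797 FPKM in the high-fat libraries and 0.984 to 1.80 FPKM in the normal-diet libraries. C1qb stood at 0.429 to 1.63 FPKM in the high-fat libraries and at 0 in the normal-diet libraries. Adipocyte genes summed to 0.828 to 5.18 FPKM in the high-fat libraries and 1.03 to 2.57 FPKM in the normal-diet libraries. Stromal genes summed to 2.44 to 20 FPKM in the high-fat libraries and 1.52 to 7.70 FPKM in the normal-diet libraries. Of the 8 genes of the dissociation and stress list, Hspa1a and Hspa1b hold values below 0 and were left out. Of the other 6, all tested, Dnajb1 was lower on the high-fat diet, and they summed to 12044 to 14596 FPKM in the high-fat libraries and 10917 to 14603 FPKM in the normal-diet libraries. None of these lists had a member at 0 in every library. Their part in the mitochondrial levels was not tested.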

How the data were processed

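Trizol RNA was turned into full-length cDNA by a SMART-Seq HT kit and into libraries by a transposase kit, per the labels' protocols. HISAT2, Cufflinks and mm10 are named in the submitters' processing notes, with no versions or annotation and nothing on reads that match several places. Values were deposited as FPKM, per the file headers, but 14605 of 39527 genes hold values below 0, so the unit was recorded as other. Each value is a whole read number times a library- and row-dependent size (10 recycled factors, 0.863 to 1.18) over a length. Reads were recovered for 100% of genes above 0 (relative tolerance 1e-06). A gene whose reads share a divisor can come out too low. Depth was 9005363 to 15752815 recovered reads.

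Members are all genes named mt-, of which 16 of 37 expected were in the table. Nuclear genes were named by a rule: up to 4 called genes of each list by fold change, otherwise the 2 with the highest mean, with Il1rl1 and Gata3 as checks. Other genes or markers named were chosen after their values were seen. Members and lists were chosen with earlier results of these data known. Of the list genes, Twnk, Prorp, Mrm2 and Mrm3 were not found under these names.

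Genes at 1 FPKM or more in at least 4 libraries with no value below 0 (11483) were tested with limma 3.58.1 in R 4.3.3 on log2(FPKM + 1), with trended, robust variance, diet as the only term and two-sided p-values with Benjamini-Hochberg adjustment at 0.05. Such fold changes understate those of low genes. A second fit used log2(RPM + 1), with RPM taken from the recovered reads, for 14161 genes. On simulated libraries 200 genes of 11483 were changed, all drawn from those above the median level, with noise independent between genes. There the first fit found 86% of changes of 2-fold and 100% of those of 4-fold, and 3.13% of its calls were false. Lower genes and smaller changes were not simulated. No 2 libraries agreed within sampling noise. Nuclear copies were found with BLAST 2.17.0 against the annotated transcripts. Shares and ratios have no test, and sums over members have no p. Single-library outliers were looked for in 52 groups of 4 values with Dixon's test (critical value 0.829), and 0 were found. With 4 values this test flags only extreme departures, so it does not show that H2 lies with the others. Alternatives covered pseudocount, filter, scaling, recycled factor, replicate block, voom and left-out libraries.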

Additional observations from a re-analysis of the deposited data

How the results depend on the processing

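No alternative called a mitochondrially encoded gene on the RPM scale, and on the FPKM scale 2 did: a filter of 5 FPKM called 2 (mt-Co1 and mt-Tp), where 6.29% of all tested genes were called, and equal library medians 1 (mt-Co1), where 4.15% were. The calls over all genes, 328 on the FPKM scale, were 130 with no filter, 571 with the recycled factor divided out, 1505 with voom and 129 to 536 with 1 library left out, lowest without H3 and without H4 (129 each) and highest without H2 (536). On the RPM scale 1444 calls became 770 with no filter and 692 to 1612 with 1 library left out. The lower part of the calls was 65.9% on the FPKM scale, against 47.4% with quantile normalization, 25.8% with voom and 25.3% on the RPM scale. With the replicate block the calls were 191 on the FPKM scale and 930 on the RPM scale, and same-numbered libraries deviated together by correlations of only -0.25 to 0.08, so the numbers were not taken as pairs.

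Of the nuclear genes, 1 was called, against 0 with no filter, 0 with the replicate block (Tbrg4 adjusted p = 0.0521, limma, log2 fold change -0.73), 2 with equal library medians, 2 without H2 and N2, 12 with voom and 0 to 2 with 1 library left out.

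Members with a fold change near 0 changed sign, all far from the threshold. On the FPKM scale the log2 fold change of mt-Nd6 was 0.054 with quantile normalization, 0.060 without H2 and N2, 0.036 with voom and -0.216 to 0.112 with 1 library left out. That of mt-Co2 was 0.013 with the factor divided out, 0.093 without H2 and N2, 0.239 with voom and -0.296 to 0.214 with 1 library left out. For mt-Atp6 it was 0.063 without H2 and N2, 0.027 with voom and -0.150 to 0.036 with 1 library left out. On the RPM scale, quantile normalization gave 0.069 for mt-Rnr2, -0.165 for mt-Co2 and -0.113 for mt-Nd6, and mt-Atp6 was 0.068 without H2 and N2 and 0.033 with voom. With 1 library left out the ranges there were -0.252 to 0.038 for mt-Rnr1, -0.114 to 0.094 for mt-Rnr2, -0.038 to 0.343 for mt-Co2, -0.078 to 0.070 for mt-Atp6 and -0.066 to 0.131 for mt-Nd6. The cause was not tested. The difference in the mitochondrial share of reads kept its sign, at -0.075 to -0.030 percentage points with 1 library left out. Depth limits mt-Nd3, mt-Nd4l and mt-Atp8, at 0 to 10 reads per library.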
